A study of Mus musculus with 4 samples.

Results

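The 10 genes described here are those whose products are used to sort or recognise luminal cells of the mouse mammary gland: *Kit*, *Cd14*, *Aldh1a3*, *Itga2*, *Itgb3*, *Prom1*, *Ly6a*, *Cd24a*, *Epcam* and *Cd55*. They were taken by symbol from the rows of the deposited table, and each of the 10 matched 1 row of its 52636 genes. The ducts of the gland are lined by luminal cells, which fall into progenitors that give rise to the milk-secreting alveoli and mature cells that carry the receptors for oestrogen, progesterone and prolactin. Flow cytometry separates them by proteins at the cell surface. KIT, CD14, CD49b (*Itga2*) and CD61 (*Itgb3*) are used for the progenitor side, and Sca-1 (*Ly6a*) and CD133 (*Prom1*) for the mature, hormone-sensing side. *Aldh1a3* encodes a cytosolic aldehyde dehydrogenase, not a surface protein, and belongs to the set because the dye assay for this enzyme activity also enriches progenitors. CD24 and EpCAM gate luminal cells as a whole, and CD55 is a surface inhibitor of complement that was assigned to neither side.

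The cells came from 6-week-old female C57BL/6N mice of 2 genotypes, *Erbb3*+/+;MMTV-Cre (WT) and *Erbb3*V943R/V943R;MMTV-Cre (V943R). ERBB3 is a receptor of the epidermal growth factor receptor family, and the V943R substitution impairs its role as the activator of a partner kinase. All mice carried Cre under the mouse mammary tumour virus promoter, which is active in mammary epithelium, and in V943R mice the mutant allele is switched on where Cre has acted. The thoracic and abdominal glands of 3 mice were pooled per genotype, enriched for epithelium, sorted for luminal cells and sequenced as 2 droplet libraries per genotype, called A and B here because the table does not give their replicate numbers. The sort used antibodies to CD24 and EpCAM, so cells low in these 2 proteins were removed before any RNA was read.

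There were 9627 and 9011 cells in WT libraries A and B, and 6849 and 6952 in those of V943R. Unique molecular identifiers (UMIs), which tag single captured mRNA molecules, numbered 30019745 to 38009351 per library. Every pair of libraries shared between 71 and 111 cell barcodes, at most 1.28% of the smaller library. The submitters' class of each cell was used: luminal progenitor (LP, clusters 1 and 2), luminal intermediate (LI, cluster 3) and mature luminal (ML, clusters 4 to 11), with clusters 12 and 13 as rare cells. The class lists fit these names, since the summed level of 7 progenitor genes was 22427 counts per 1000000 UMIs (CPM) in WT LP and 205 CPM in WT ML, and that of 6 mature genes was 932 and 7651 CPM. The mature genes include *Prlr*, by which the study defined ML, at 2125 CPM in WT ML. Genes of other cell types were low in the WT LP and ML classes, with sums of 46.2 and 16.4 CPM for 6 basal genes, 12.6 and 3.70 CPM for 6 immune genes, 3.40 and 1.02 CPM for 5 endothelial genes, and 3.17 and 14.4 CPM for 5 fibroblast genes. *Erbb3* itself, over all cells, was read at 60.9 CPM in WT A, 63.3 CPM in WT B, 29.8 CPM in V943R A and 30.8 CPM in V943R B. The study reported a smaller decrease in the mutant sample. By its design, the allele before Cre action carries a human growth hormone 3′ end. How this assay, which reads 3′ ends, counted such transcripts was not tested.

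Levels are given in CPM, for which the UMIs of a gene in a class or cluster were added up and set against the total UMIs of those cells. With 1 pool of mice per genotype there is no biological replicate, so no test was made. The 95% intervals cover counting error only, and the spread between libraries A and B is technical. The classes were drawn by clustering these same cells, and the study used *Kit* to name LP and *Prlr* to name ML. So differences between classes are descriptions of the classes and not tests of them.

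The 3 abundant progenitor markers separated LP from ML by more than 30-fold. *Kit*, the receptor for stem cell factor (chr5:75574916-75656722, plus strand, GRCm38), was at 215 and 222 CPM in LP of WT libraries A and B and at 2.95 and 2.43 CPM in ML. The log2 ratio of LP over ML was 6.35 (95% interval 6.11 to 6.60). *Cd14*, a co-receptor for bacterial lipopolysaccharide, was at 906 and 980 CPM in LP and at 26.4 and 25.9 CPM in ML, a log2 ratio of 5.18 (5.10 to 5.26). *Aldh1a3*, which makes retinoic acid from retinaldehyde (chr7:66390890-66427517, minus strand), was at 460 and 437 CPM in LP and at 5.60 and 5.74 CPM in ML, a log2 ratio of 6.30 (6.14 to 6.47). For these 3 genes every LP library lay far above every ML library.

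The 2 integrin subunits of the progenitor side were read at a low level in every class. *Itga2*, the collagen-binding alpha-2 chain (chr13:114833081-114932100, minus strand), was at 9.17 and 7.81 CPM in LP and at 1.77 and 1.52 CPM in ML of the WT libraries, which rests on 72 UMIs in LP. Its log2 ratio was 2.37 (1.9 to 2.83). *Itgb3*, the beta-3 chain (chr11:104608000-104670476, plus strand), was at 7.68 and 7.14 CPM in LP and at 1.99 and 2.40 CPM in ML, with 63 UMIs in LP and a log2 ratio of 1.75 (1.29 to 2.2). Both genes were higher in LP in each library, but a single LP cell seldom held a UMI of either, 2.2% of WT LP cells for *Itga2* and 1.89% for *Itgb3*. *Cd55* (chr1:130439027-130462744, minus strand) fell on the same side as these genes, at 18.6 and 17.8 CPM in LP and at 4.2 and 4.52 CPM in ML, a log2 ratio of 2.06 (1.76 to 2.35).

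The mature markers ran the other way. *Ly6a* (chr15:74994877-74998031, minus strand), a small lipid-anchored protein, was at 104 and 108 CPM in LP and at 948 and 982 CPM in ML, and its log2 ratio was -3.19 (-3.28 to -3.09). *Prom1* (chr5:43993620-44102032, minus strand), a protein of membrane protrusions, was at 23.0 and 20.7 CPM in LP and at 122 and 113 CPM in ML, a log2 ratio of -2.43 (-2.64 to -2.21). Whether reads of *Ly6a* were shared with other genes of its family was not tested, and no sequences were compared. In WT ML, *Ly6c1* was at 17.9 CPM, *Ly6c2*, *Ly6g* and *Ly6i* at 0.828 to 2.87 CPM, and *Ly6d* and *Ly6e* at 5571 and 3163 CPM. *Cd55b*, the relative of *Cd55*, had 1 UMI in WT LP and 0 in WT LI and ML.

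The 2 antigens that gate luminal cells as a whole were not level across the classes. *Cd24a* (chr10:43578284-43584265, plus strand), a small mucin-like surface protein, was at 390 and 436 CPM in LP and at 1095 and 1166 CPM in ML, a fold of 2.74 in favour of ML and a log2 ratio of -1.45 (-1.5 to -1.4). *Epcam* (chr17:87635979-87651129, plus strand), an epithelial adhesion molecule, was at 2641 and 2711 CPM in LP and at 1650 and 1691 CPM in ML, a log2 ratio of 0.68 (0.66 to 0.70). So the CD24 transcript was higher in ML and the EpCAM transcript was higher in LP, in both libraries of both genotypes. Whether the sort on these 2 proteins set the range of their transcripts was not tested.

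A marker was counted as higher or lower when its fold was 2 or more, it had at least 50 UMIs in whichever class held more of its UMIs, and both libraries lay on the same side. ML holds the most cells, so *Itga2* and *Itgb3* had more UMIs in ML, where their levels were lower. Of the 10 markers, 6 were higher in WT LP (*Kit*, *Cd14*, *Aldh1a3*, *Itga2*, *Itgb3* and *Cd55*) and 3 were lower (*Prom1*, *Ly6a* and *Cd24a*). Among the 15320 genes that could be judged by this rule, 13.1% were higher and 9.94% were lower. With the 50 UMIs asked of the class with the higher level, the same 6 and 3 markers were counted, and 13% and 11.4% of 13367 genes, but *Itga2* and *Itgb3* were both lost without either WT library. *Epcam*, with a fold of 1.60, did not reach the fold of 2. The median log2 ratio was 1.90 over the 10 markers and 0.16 over all genes judged. In the V943R libraries the counts were 6 and 3 of the 10 markers, where 14% of 14937 genes were higher and 9.71% were lower, and the log2 ratios were 6.47 for *Kit*, 5.09 for *Cd14*, 6.43 for *Aldh1a3*, -3.29 for *Ly6a* and -2.68 for *Prom1*.

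**Figure D1:**
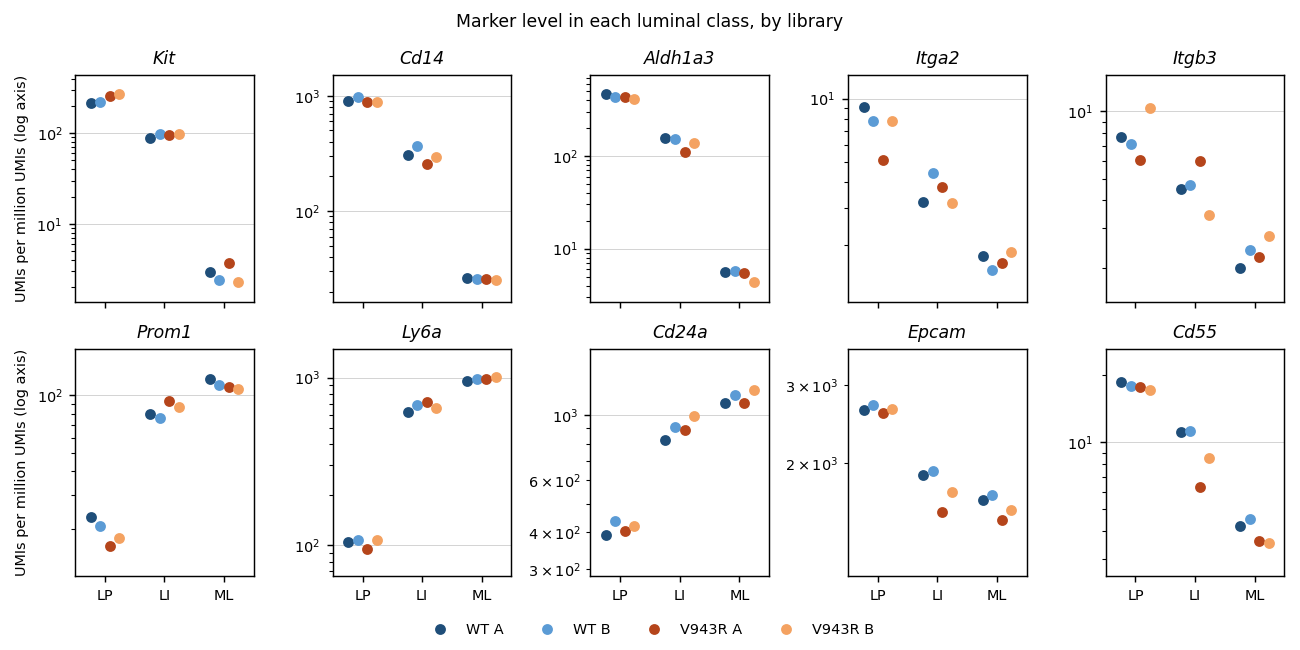
Level of each of the 10 markers in the LP, LI and ML classes, in CPM (UMIs of the gene per 1000000 UMIs of those cells) on a log axis whose range differs between panels. Each point is 1 library (WT A and B in blue, V943R A and B in orange to red); *Kit* lies at 215 to 268 CPM in LP and at 2.28 to 3.74 CPM in ML, and the LI points lie between the LP and ML points of the same library.

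The level left in the class with less of a marker differed between the sides. In WT, the ML level was 1.22% of the LP level for *Kit*, 1.27% for *Aldh1a3* and 2.77% for *Cd14*. Of the 7 progenitor genes listed as class markers, 6, among them the secreted milk proteins *Csn3* and *Lalba*, were at 0.793% to 0.898%, and the transcription factor *Elf5* was at 6.23%. The low-level markers kept more, 19.4% for *Itga2*, 29.8% for *Itgb3* and 24.0% for *Cd55*. In the other direction the LP level was 11% of the ML level for *Ly6a* and 18.6% for *Prom1*, where the 6 mature genes listed, such as the prolactin receptor *Prlr* and the oestrogen receptor *Esr1*, ranged from 9.26% to 23.6%. LP cells held fewer UMIs (a median of 2018 per WT cell) than ML cells (3508). The part that RNA from other cells had in these remainders was not tested.

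Shares of single cells with a UMI followed the levels once depth was equal. After each cell was thinned to 1000 UMIs, which left out 45 WT and 252 V943R cells, *Kit* was seen in 21.7% of WT LP cells and in 0.259% of WT ML cells. Without thinning these shares were 41.7% (95% exact interval 40.0% to 43.4%) and 1.02% (0.863% to 1.2%). *Cd14* was seen in 53.5% of thinned LP cells and 2.39% of ML cells, and *Aldh1a3* in 32.9% and 0.471%. In the rare cells of clusters 12 and 13, led by genes of other cell types, the thinned WT shares were 1.65% and 3.93% for *Kit* and 5.17% and 1.2% for *Aldh1a3*, at medians of 1985 and 1899 UMIs per cell before thinning. These rest on 43 and 83 cells, of which 2 and 9 held *Kit* and 5 and 3 held *Aldh1a3*. The ML shares of both genes lay below them and are not read as expression in ML cells. Clusters 12 and 13 are no clean background, since the 7 progenitor genes summed to 2059 and 758 CPM there in WT, against 205 CPM in ML. Whether ML cells express *Kit* or *Aldh1a3* was not tested. *Cd14* is a gene of myeloid cells, so cluster 13 gives no background for it. In WT cluster 12 *Cd14* was at 160 CPM on 18 UMIs, 15 of them in library B, above the 26.2 CPM of WT ML. In V943R cluster 12 it was at 14.3 CPM on 1 UMI, below the 25.7 CPM of V943R ML. *Ly6a* was seen in 47.8% of thinned ML cells against 6.85% of LP cells, and *Prom1* in 10.7% against 1.48%. For *Prom1* the thinned share was 5.07% in cluster 12 (7 of 43 cells before thinning) and 2.26% in cluster 13 (10 of 83), both above the LP share. For *Ly6a*, which blood vessel and immune cells also express, it was 41.6% and 22.7%. *Cd24a* was seen in 60.0% of thinned ML and 29.5% of thinned LP cells. *Epcam* was seen in 79.4% of thinned ML cells, in 92.6% of LP cells and still in 31.5% of cluster 12 and 27.3% of cluster 13, the rare WT cells led by stromal or endothelial and by immune genes.

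The LI class sat between LP and ML for every marker that separated them. *Kit* was at 89.0 and 99.0 CPM in WT LI, which is 42.3% of the way from the ML level to the LP level. The place was 34.0% for *Cd14* (308 and 370 CPM) and 33.3% for *Aldh1a3* (155 and 150 CPM). From the mature side it was 36.3% for *Ly6a* (627 and 682 CPM), 41.1% for *Prom1* (80.0 and 75.9 CPM) and 37.2% for *Cd24a* (822 and 909 CPM). For the low-level genes it was 31.5% for *Itga2*, 46.1% for *Itgb3* and 49.6% for *Cd55*. All 9 markers lay between the ML and LP levels in each of the 4 libraries. The study described LI by its graded levels of LP and ML genes, so this count describes the class and not the markers. The share of all genes that lay between was not computed. These places are per UMI and not per cell. In WT, *Kit* had 695 UMIs in 1143 LI cells and 1862 UMIs in 3181 LP cells. *Ly6a* had 4838 UMIs in the same LI cells and 54828 UMIs in 14188 ML cells. Per cell, *Kit* in LI was not below LP, and *Ly6a* in LI was not below ML. No doublet caller was run, and the part of doublets in these places was not tested. *Kit*, *Cd14* and *Aldh1a3* were read in LI at 12.9-fold (*Cd14*) to 35.1-fold (*Kit*) the ML level. *Ly6a* and *Prom1* kept most of theirs, with log2 ratios of LI over ML of -0.56 and -0.59.

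In V943R the places were lower for most of these genes, at 36.2% for *Kit*, 29.2% for *Cd14*, 28.7% for *Aldh1a3*, 34.1% for *Ly6a*, 21.2% for *Prom1*, 29.2% for *Cd24a*, 27.3% for *Cd55* and 38.2% for *Itgb3*. For *Itga2* the place was higher, at 35.8% against 31.5% in WT. Both V943R libraries lay below both WT libraries for 5 of the 9 markers (*Kit*, *Cd14*, *Prom1*, *Cd24a* and *Cd55*), and the libraries of the genotypes overlapped for the other 4. The share of all genes with this order was not computed, so the count is not read as a result about the markers. A place also depends on the LP and ML levels. *Kit* in LI was at 93.9 CPM in WT and 97.1 CPM in V943R, with overlapping libraries, while its LP level was 219 and 263 CPM. The range over the 4 libraries was widest for the genes with few UMIs, 8.69% to 98.7% for *Itgb3* and 19.2% to 62.1% for *Itga2*. LI cells were also the deepest of the 3 classes, with a median of 5620 UMIs in WT and 6850 in V943R.

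**Figure D2:**
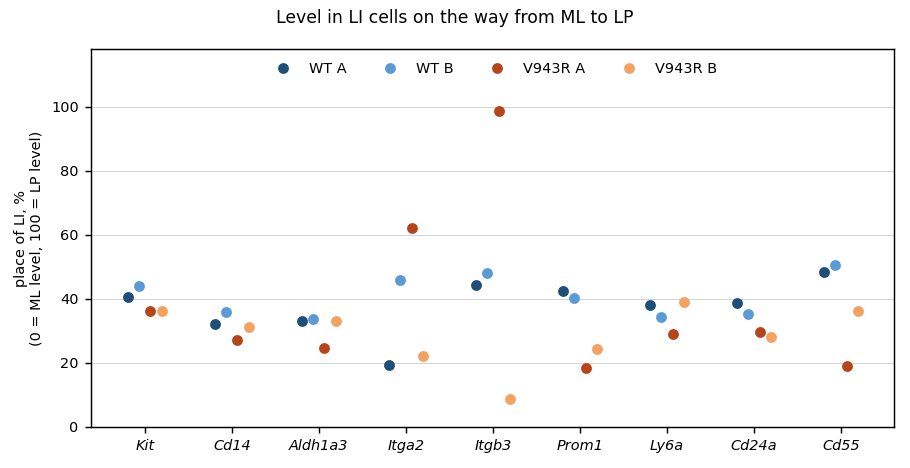
Place of the LI level between ML (0%) and LP (100%) for the 9 markers that separated LP from ML, with 1 point per library (WT blue, V943R orange to red). *Kit*, *Cd14*, *Aldh1a3*, *Prom1*, *Ly6a* and *Cd24a* lie between 18.5% and 44.0% in each library, and *Itga2* and *Itgb3*, which rest on few UMIs, spread from 8.69% to 98.7%.

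Markers of both sides were read in the same LI cells. In WT LI, 624 of the 1142 cells with at least 1000 UMIs held a UMI of both *Cd14* and *Ly6a*, and 361 held both *Kit* and *Ly6a*. After thinning to 1000 UMIs, *Cd14* and *Ly6a* were together in 10.1% of LI cells, 0.96 times the product of the single shares (27.5% and 38.3%). The same ratio was 0.89 for *Kit* with *Ly6a* (0.84 and 0.95 in libraries A and B), 0.88 for *Aldh1a3* with *Ly6a* and 1.07 for *Kit* with *Prom1*. In V943R LI the 3 ratios with *Ly6a* were 1.00 for *Cd14*, 0.96 for *Kit* and 1.04 for *Aldh1a3*. A ratio of 1 is what independent draws within a class would give, and these pairs lay near it in both genotypes. No doublet caller was run, LI cells had the most UMIs, and the part of doublets in these pairs was not tested.

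Within LP, *Kit*, *Cd14* and *Aldh1a3* were read together slightly above the product of their shares. The ratio was 1.07 for *Kit* with *Cd14* and for *Kit* with *Aldh1a3*, and 1.08 for *Cd14* with *Aldh1a3*, and the V943R values were 1.06, 1.06 and 1.08. The ratios of these 3 genes with *Itga2* or *Itgb3* lay between 0.81 and 1.21 for WT cells, and between 0.81 and 1.38 for V943R cells, on 29 to 56 cells with both before thinning. The few LP cells with *Prom1*, a share below that in the rare cells, held *Ly6a* more often than the product, with a ratio of 1.79 in WT (2.21 and 1.33 in libraries A and B) and 1.32 in V943R, and this rests on 63 and 55 cells with both before thinning. The ratio of *Prom1* with *Cd14* in LP was 0.74 in WT and 0.88 in V943R. That of *Prom1* with *Kit* was 0.68 in WT but 1.00 in V943R, where libraries A and B gave 0.60 and 1.27. In ML, *Prom1* and *Ly6a* were together at 1.10 times the product in WT and 1.08 times in V943R, and *Ly6a* and *Cd24a* at 1.06 and 1.07 times. The ratios were taken over each class as a whole. *Kit*, *Cd14* and *Aldh1a3* were all higher in cluster 1 of WT than in cluster 2. Their levels were 243 and 140, 1094 and 454, and 516 and 223 CPM. In WT ML, *Prom1* (167 and 79.9 CPM) and *Ly6a* (1600 and 515 CPM) were both higher in cluster 10 than in cluster 6. The part of these differences and of doublets in the ratios was not tested.

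**Figure D3:**
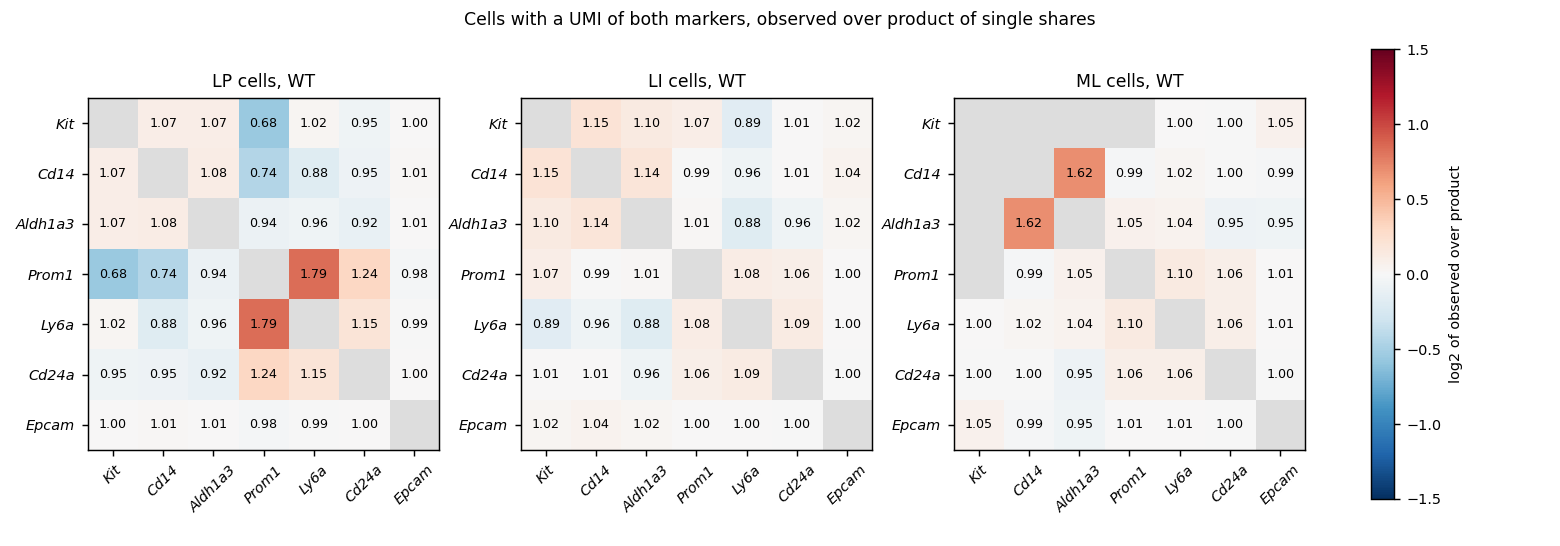
Share of WT cells with a UMI of both markers divided by the product of the single shares, in LP, LI and ML cells thinned to 1000 UMIs, for the 7 more abundant markers. Numbers give the ratio and colour its log2; grey marks pairs with fewer than 50 cells holding both before thinning. In LI the ratios of progenitor with mature markers run from 0.88 to 1.07.

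Of the progenitor markers, *Cd14* and *Aldh1a3* were lower in the proliferating LP cells of cluster 2 than in cluster 1 by more than 2-fold, and *Kit* was lower by 1.74-fold. In WT libraries A and B, *Kit* was at 240 and 245 CPM in cluster 1 and at 139 and 140 CPM in cluster 2, a log2 ratio of -0.80 (-0.99 to -0.61). *Cd14* was at 1094 CPM in cluster 1 and 454 CPM in cluster 2, with a log2 ratio of -1.27 (-1.37 to -1.17), and for *Aldh1a3* the levels were 516 and 223 CPM, with a log2 ratio of -1.21 (-1.36 to -1.07). *Cd55*, at 21.3 and 8.06 CPM on 16 UMIs in cluster 2, had a log2 ratio of -1.40 (-2.25 to -0.65). At a fold of 2, these last 3 of the 9 markers that could be judged were lower in cluster 2 and 0 were higher, where 3.89% of 10018 genes were lower and 3.77% were higher. *Itga2* was at 8.56 CPM in cluster 2 and 8.42 CPM in cluster 1, and *Itgb3* at 8.06 and 7.19 CPM, on 17 and 16 UMIs in cluster 2, with overlapping libraries and intervals of the log2 ratio from -0.85 to 0.83 and from -0.75 to 1.01. In V943R *Itgb3* was at 6.94 and 11.8 CPM in cluster 1 and at 3.25 and 5.52 CPM in cluster 2, where it had 3 and 6 UMIs. These library values did not overlap, but the counting intervals of the 2 libraries together did. They were 7.39 to 12.3 CPM in cluster 1 and 2.05 to 8.49 CPM in cluster 2. *Epcam* differed by -0.08 and *Ly6a* by 0.12 on the log2 scale, and *Prom1* was at 31.2 CPM in cluster 2 and 19.0 CPM in cluster 1. The 4 proliferation genes summed to 1429 CPM in cluster 2 and 87.7 CPM in cluster 1, and cluster 2 cells had more UMIs (a median of 3490 against 1828). In WT, *Kit* had 1585 UMIs in the 2702 cells of cluster 1 and 277 in the 479 cells of cluster 2, which is close per cell. *Cd14* (7150 and 901 UMIs) and *Aldh1a3* (3372 and 442 UMIs) were lower per cell in cluster 2 as well. The part of the larger totals in these differences was not tested.

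Across the 8 ML clusters in WT, *Ly6a* and *Prom1* were highest in cluster 10 and lowest in cluster 6, and *Cd24a* was highest in clusters 8 and 10. *Ly6a* was highest in cluster 10, at 1551 and 1646 CPM in WT libraries A and B, followed by clusters 9, 8, 4 and 11 (1136, 1077, 1002 and 911 CPM), and lowest in the proliferating cluster 6, at 500 and 528 CPM. Each of these neighbours lay apart in both libraries, and those of clusters 5 and 7 (662 and 654 CPM) overlapped. *Prom1* was also highest in cluster 10, at 167 CPM, and lowest in cluster 6, at 79.9 CPM, a fold of 2.09 against 3.11 for *Ly6a*. *Cd24a* ran from 1445 CPM in cluster 8 and 1376 CPM in cluster 10, which overlapped, to 792 CPM in cluster 5. *Epcam* did not follow this order, since it was highest in clusters 9 and 11 (2029 and 1984 CPM, overlapping) and lowest in cluster 5 (1344 CPM). In V943R the same clusters were highest and lowest for *Ly6a*, with 1628 CPM in cluster 10 and 577 CPM in cluster 6. *Prom1* in V943R was highest in cluster 10 (159 CPM) and lowest in cluster 5 (78.0 CPM), apart from cluster 6 (82.6 CPM).

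In ML, the progenitor markers were read at low levels. *Kit* lay between 2.18 and 4.10 CPM in the 8 WT clusters, and *Cd14* between 19.3 and 34.1 CPM, with overlapping libraries between every pair of neighbours in the order of *Cd14*. *Aldh1a3* ran from 9.77 CPM in cluster 5 to 2.76 CPM in cluster 11 in WT and from 8.75 to 2.08 CPM between the same clusters in V943R. *Itgb3* was at 5.22, 4.10 and 3.83 CPM in clusters 5, 6 and 7 and at 0.47 CPM in cluster 10, on 5 to 43 UMIs each, and had 0 UMIs in the 441 WT cells of cluster 9, which held a median of 1532 UMIs. A count of 0 there, taken as fewer than 3 counts, allows a level of up to 4.21 CPM, and the exact upper limit is 5.17 CPM. The same 3 clusters were the highest ML clusters for *Itgb3* in V943R, at 3.86, 3.46 and 3.86 CPM.

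**Figure D4:**
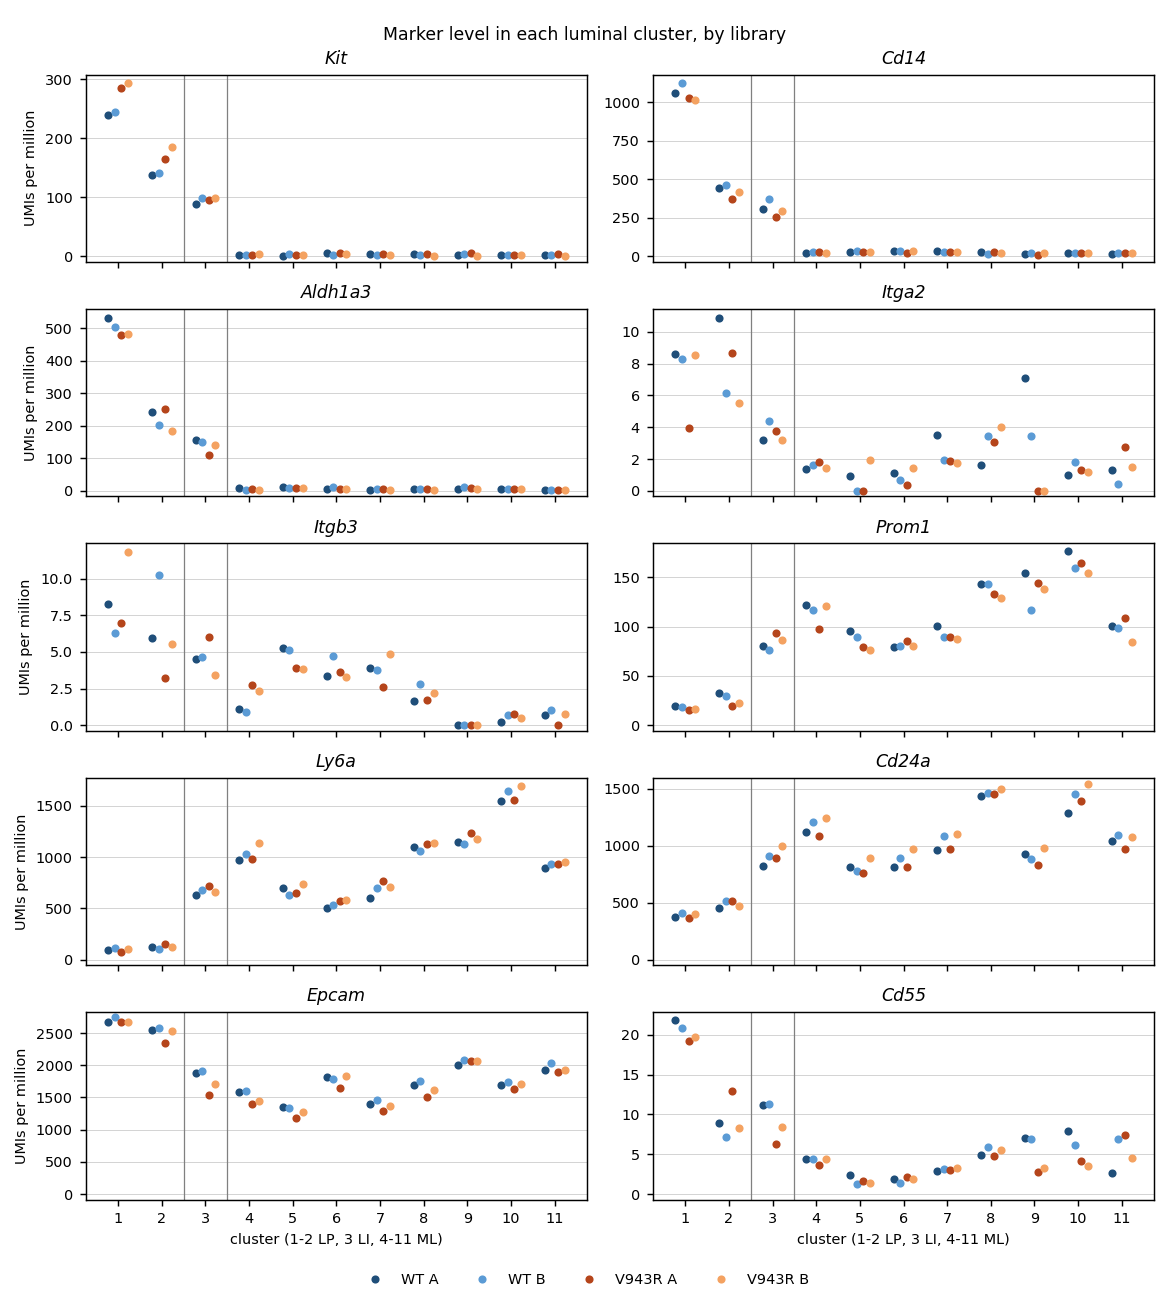
Level of each marker in clusters 1 to 11, in CPM on linear axes, with 1 point per library; grey lines part LP, LI and ML. *Kit*, *Cd14* and *Aldh1a3* step down from cluster 1 to cluster 2 to cluster 3 and stay near 0 in ML, and *Ly6a* rises to 1551 to 1692 CPM in cluster 10.

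Over the 11 luminal clusters in WT, the order of levels was compared between genes by Pearson's correlation of log2(CPM + 1), among 9825 genes with at least 500 WT UMIs. The clusters share their libraries, and the step from LP to ML dominates this measure. The genes most like *Kit* were *Lcn2*, *Wnt5b* and *3110079O15Rik* (r of 0.997 to 0.999), those most like *Cd14* were *Mfge8*, *Xdh* and *C2cd4b* (0.994 to 0.995), and those most like *Aldh1a3* were *Gm15867*, *Tspan8* and *Mfge8* (0.988 to 0.991). *Prom1* was most like *Ern1*, *Ly6a* and *Lpin2* (0.982 to 0.984), and *Ly6a* was most like *Tmed3*, *Lasp1* and *Gadd45g* (0.989 to 0.992). For *Cd24a* the genes were *Tbx3os2*, *AC160637.1* and *Mtmr7* (0.969 to 0.975), for *Epcam* *9330162G02Rik*, *Zc3h10* and *Eef2k* (0.951 to 0.981), and for *Cd55* *Sik1*, *Ano1* and *Nectin4* (0.951 to 0.962). *Itga2* was most like *Arhgap28*, *Prkx* and *Mlxip* (0.938 to 0.947) and *Itgb3* most like *Rab28*, *Msrb2* and *Serpinb6a* (0.962 to 0.971), but in V943R the values were 0.11 to 0.55 for the genes of *Itga2*, 0.35 to 0.76 for those of *Epcam* and 0.74 to 0.94 for those of *Itgb3*. The genes of the other 7 markers kept values of 0.82 or more. *Kit* and *Cd14* had an r of 0.990 with each other, *Prom1* and *Ly6a* of 0.983, and *Kit* and *Ly6a* of -0.842.

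Other antigens used to sort the gland were read from a list of 20 genes. Of the 11 with at least 50 UMIs, 4 were higher in WT LP and 3 were lower by the same rule, against the 13.1% and 9.94% of all genes given above. The higher ones were *Tspan8*, a tetraspanin (262 CPM in LP and 4.46 CPM in ML), *Muc1*, an apical mucin (84.6 and 5.58), *Met*, the receptor for hepatocyte growth factor (37.7 and 3.03), and *Cd44*, a hyaluronan receptor (33.0 and 6.87). The lower ones were *Cd200*, an immune-regulatory membrane protein (154 CPM in LP and 1060 CPM in ML), *Lifr*, the receptor for leukaemia inhibitory factor (18.2 and 93.9), and *Icam1*, an adhesion molecule for leukocytes (7.51 and 23.6). The transcripts of 2 antigens in the sort cocktail differed little between the classes, with log2 ratios of 0.44 for *Itgb1* (CD29) and -0.47 for *Itga6* (CD49f). *Ptprc* (CD45), by which leukocytes are gated out, had 1 UMI in WT LP and 1 in WT ML.

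Between the genotypes, the markers moved by less than 1.6-fold within each class. A marker was counted as changed when its fold was 1.5 or more, at least 50 UMIs were counted in one genotype, and the V943R libraries both lay beyond the WT libraries. In LP, 0 of the 10 markers were higher and 0 were lower in V943R, where 2.23% of 11219 genes were higher and 0.606% were lower. In ML the counts were also 0 and 0 of 10, against 2.86% and 1.57% of 15157 genes. In LI, 8 of the markers could be judged, 0 were higher and 1 was lower, against 2.83% and 1.03% of 10525 genes. The median log2 ratio of V943R over WT was -0.06 in LP, -0.04 in LI and 0.00 in ML over the 10 markers, and 0.02, 0.00 and 0.00 over all genes judged.

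The marker that was lower in LI was *Cd55*. It was at 11.2 and 11.3 CPM in WT libraries A and B and at 6.28 and 8.47 CPM in V943R, on 83 and 57 UMIs, a log2 ratio of -0.61 (-1.12 to -0.11) and a fold of 1.53. Without V943R library A the log2 ratio was -0.41, which is under the fold of 1.5. In ML *Cd55* was at 4.37 CPM in WT and 3.57 CPM in V943R, with both V943R libraries below both WT libraries, and cluster weights of the WT cells gave a log2 ratio of -0.2 in place of -0.29. In cluster 10 it also met the rule, at 7.0 CPM in WT and 3.84 CPM in V943R, on 74 and 31 UMIs. The log2 ratio was -0.87 (-1.52 to -0.25), a fold of 1.83. Without either WT library it was under 50 UMIs there, and the share of all genes lower in cluster 10 was not computed. Among clusters 1 to 11, *Cd55* was higher in V943R in clusters 2 (8.06 and 10.4 CPM), 6 (1.6 and 2.01 CPM), 7 (3.03 and 3.17 CPM) and 11 (4.89 and 5.81 CPM), each on 46 UMIs or fewer. In LP it was at 18.2 and 17.4 CPM, and the log2 ratio was -0.06 (-0.4 to 0.27). An antisense transcript that overlaps *Cd55*, *Gm16083*, had 21 UMIs in all cells, and *Gm42716* and *Gm16401*, which overlap *Prom1*, had 101 and 18.

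*Kit* was higher in V943R LP by less than the fold of 1.5. The LP level was 215 CPM in WT A, 222 CPM in WT B, 257 CPM in V943R A and 268 CPM in V943R B, without overlap, with a log2 ratio of 0.27 (0.18 to 0.36). The difference was seen in cluster 1 (243 and 290 CPM in WT and V943R) and in cluster 2 (140 and 175 CPM). The thinned share of LP cells with *Kit* was 21.4% in WT A, 22% in WT B, 24.9% in V943R A and 25.8% in V943R B. In LI, *Kit* was at 93.9 and 97.1 CPM, with overlapping libraries. Over all cells it was at 37.3 CPM in WT and 51.0 CPM in V943R, and LP cells made up 17.1% of WT and 22.6% of V943R cells.

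*Cd14* and *Aldh1a3* were lower in V943R LI, each by a log2 ratio of -0.30, with both V943R libraries below both WT libraries. *Cd14* was at 308 and 370 CPM in WT LI and at 257 and 292 CPM in V943R, and *Aldh1a3* was at 155 and 150 CPM and at 109 and 139 CPM. In LP the ratios were -0.11 and -0.09. The list of 7 progenitor genes was also lower in V943R LI, with sums of 6976 and 7234 CPM in WT and 6021 and 6297 CPM in V943R. Across these classes, *Epcam* was at 1874 and 1916 CPM in WT LI and at 1546 and 1714 CPM in V943R LI (-0.22), at 1650 and 1691 CPM and 1480 and 1559 CPM in ML (-0.14), and at 2678 and 2625 CPM per genotype in LP (-0.03, overlapping libraries). The make-up of ML differed between the pools, since cluster 11, with the second highest *Epcam* level in ML, held 15.4% of WT and 4.85% of V943R cells, and with the clusters weighted as in WT the ML log2 ratio of *Epcam* was -0.08. *Ly6a* and *Cd24a* stayed within a log2 ratio of 0.12 in each class, with overlapping libraries. The low-level integrins gave no ordered libraries in LP, with *Itga2* at 9.17 and 7.81 CPM in WT and 5.06 and 7.82 CPM in V943R, where the log2 ratio of -0.36 was -0.74 without V943R B and then past the fold of 1.5, and *Itgb3* at 7.68 and 7.14 CPM against 6.07 and 10.4 CPM. *Prom1* was lower in V943R LP (16.2 and 18.0 CPM against 23.0 and 20.7) and ML, and higher in LI (93.6 and 86.5 CPM against 80.0 and 75.9). With all libraries, none of these differences reached the fold of 1.5.

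A list of 5 genes induced by tissue dissociation (*Fos*, *Jun*, *Egr1*, *Atf3* and *Hspa1a*) differed between the pools. In LP its sum was 17568 CPM in WT A, 18340 CPM in WT B, 14214 CPM in V943R A and 14476 CPM in V943R B. The genotype sums were 16300 against 12391 CPM in LI and 14788 against 12348 CPM in ML. V943R cells also held more UMIs, with a median of 3840 against 3400 in WT. Of the lists for other cell types, the 5 fibroblast genes summed to 14.4 CPM in WT ML and 4.88 CPM in V943R ML, of which *Dcn* made up 13.6 and 3.94 CPM, and the 6 basal genes to 31.4 and 40.3 CPM in LI and to 16.4 and 13.7 CPM in ML. The 6 immune genes summed to 12.6 CPM in WT and 15.8 CPM in V943R in LP, to 18.1 and 12.2 CPM in LI, and to 3.70 and 6.13 CPM in ML. *Cd74* in LI was at 23.9 and 5.78 CPM in WT libraries A and B and at 7.03 and 4.23 CPM in V943R, so 1 library carried its gap. *Ptprc*, which defines leukocytes, had at most 1 UMI in each class of each genotype, but it had only 12 UMIs in the 83 WT cells of the immune cluster 13. The stress sums in each class, the fibroblast and immune sums in ML and the basal sums in LI and ML lay apart by library between the genotypes, while the immune sums in LP and LI overlapped. The median UMIs per cell overlapped over all cells and in LP, and were higher in both V943R libraries in LI (6756 and 7009 against 5314 and 6061) and in ML (3870 and 4294 against 3246 and 3809). The part of these values in the marker differences was not tested.

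**Figure D5:**
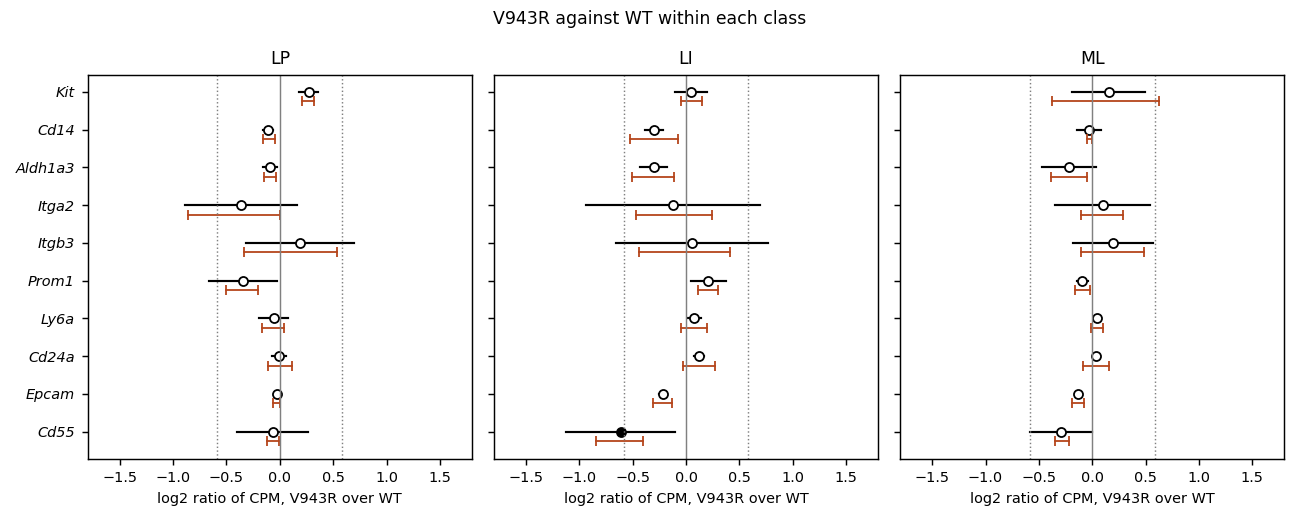
Log2 ratio of CPM, V943R over WT, for each marker within LP, LI and ML. Circles are the ratios with black 95% counting intervals (filled where the rule was met), red bars span the lowest and highest of the 4 library pairs, and dotted lines mark a fold of 1.5; the filled circle is *Cd55* in LI, at -0.61.

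Of the other antigens on the list, 0 of the 11 judged were higher or lower in V943R LP or LI, and 1 was lower in ML, against the shares of genes given above. This was *Muc1*, at 5.58 CPM in WT and 3.5 CPM in V943R, a log2 ratio of -0.67 (-0.96 to -0.39), and in LP it was at 84.6 and 79.1 CPM.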

How the data were processed

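Single luminal cells were profiled on the 10x Chromium platform (3′ kit v2), and per the submitters' processing notes reads were handled with CASAVA 1.8, bcl2fastq 2.20 and GSNAP on GRCm38. The authors deposited a signal table, in which the UMIs of each cell were multiplied by 1 factor, with the library, genotype, cluster and class of each cell. Dividing by the smallest value of a cell gave whole numbers, within 0.02, for 100% of 60853305 nonzero values. These were summed by class and library, and every deposited cell was used. Whether counting used strand is not given in the sources used here.

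No test was made, since each genotype was 1 pool. Intervals are exact Poisson, conditional binomial or Clopper-Pearson and cover counting error only. Thinned shares are exact expectations. The calling rule was tested on simulated data. The 10 markers were computed in every comparison, though not every value is printed, beside a list of 20 other antigens and the 3 genes most like each marker. The members, lists and rules were chosen with earlier results of these data known, and pairs within LI were added after seeing the data. Gene positions are from GENCODE. Alternatives covered libraries, scaling, weights of cells, minimum UMIs, folds and sets of cells. Python 3.11.15 with numpy 2.4.6, scipy 1.17.1 and matplotlib 3.10.9 was used.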

Additional observations from a re-analysis of the deposited data

Results flagged for a closer look

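*Prom1* is listed because its ratio between the genotypes had opposite signs in different classes. Both V943R libraries lay below both WT libraries in LP, with a log2 ratio of -0.35 (-0.67 to -0.03) on 186 WT and 149 V943R UMIs, and above them in LI, with a log2 ratio of 0.21 (0.05 to 0.37). In ML they lay below, with a log2 ratio of -0.09 (-0.15 to -0.04). The difference between the classes was not tested, and each fold was under 1.5. The share of LP cells with *Prom1* was below that in the rare cells of clusters 12 and 13, where its level also was lower in V943R. It was at 89.1 and 43.0 CPM in cluster 12 (10 and 3 UMIs) and at 48.6 and 17.0 CPM in cluster 13 (13 and 4 UMIs). The intervals of these log2 ratios spanned both signs, from -3.55 to 0.90 and from -3.59 to 0.18. In cluster 12, *Epcam* (793 and 172 CPM) and *Cd24a* (749 and 387 CPM) were lower in V943R as well, in 43 WT and 33 V943R cells. *Ly6a* was not lower there, at 1435 and 1490 CPM.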

How the results depend on the processing

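No paired analysis was possible because the table gives the library of each cell but not its replicate number, so no replicate block could be fitted. The counts of markers higher and lower in LP than in ML stayed within 1.5 times of 6 and 3 under each alternative, at 4 to 7 and 2 to 3. A minimum of 100 UMIs or leaving out either WT library removed *Itga2* from the count, a fold of 4 removed *Itgb3* and *Cd24a*, and a fold of 1.5 added *Epcam*. With the minimum asked of the class with the higher level, an alternative chosen after seeing the data, the counts were 6 and 3, and 4 and 3 without either WT library. Median of ratios scaling shifted every log2 ratio of LP over ML by -0.18 and turned no sign. Between genotypes, the count of markers lower in LI was 1, and it was 0 with a minimum of 100 UMIs, with a fold of 2 or, over the libraries left out, in a range of 0 to 1, where 0 came without V943R A. The count of markers lower in LP was 0, and it was 1 at the lowest fold tried (*Prom1*) and, over the libraries left out, 0 to 1, where *Itga2* had a log2 ratio of -0.74 without V943R B. Leaving out a library keeps 1 library on that side, assumed to vary like the others. In ML 0 markers were counted under each alternative. In all, 121 of the counts kept within 1.5 times and 5 moved. Of the log2 ratios of single markers, 566 stayed within the spread between libraries and 64 moved, with no called direction reversed. Many of the 566 could not move, because the fold, the minimum of UMIs and the rule on libraries do not enter a log2 ratio. So the 566 are no measure of how stable the ratios are. The shares of cells moved with the number of UMIs kept in 27 cases and stayed in 3, with none reversed. Depth limits *Itga2*, *Itgb3* and *Cd55*, which had 194, 224 and 489 UMIs in all WT cells.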
